A study of Homo sapiens with 2 samples.

Results

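Focal adhesions are the plaques through which integrins bound to the matrix are tied to actin filaments, and 9 genes of these plaques and of the filamin network were followed: VCL, ZYX, TLN1, PXN, PTK2, PDLIM7, FLNA, RFLNB and ACTN4. They were chosen by name, with earlier results of these data known. Every probe set that the platform annotation assigned to one of them alone was used. This gave 23 probe sets for 8 of the 9 genes, out of 19775 genes named on the array. FLNA itself was not analysed here, because no probe set was named for FLNA alone by the annotation used. Both cultures were Calu-3, an established human lung adenocarcinoma line with airway gland character, on flexible BioFlex plates coated with collagen type I in MEM plus 10% FBS. The stretched culture was driven for 18 h on a FlexCell FX-4000T device between 0.7% and 20% stretch in a sine wave of 2 s on and 2 s off. The non-stretched culture carried the same 18 h label without stretch. Per the labels' protocols the cells were at about 80% confluence, while the design text calls them confluent. Each group was 1 array of total RNA (n = 1), and whether that RNA came from 1 well or several is not given in the sources used here.

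In a focal adhesion, talin binds and activates integrins and reaches actin, vinculin strengthens that link when talin is pulled open, and alpha-actinin cross-links the actin filaments that end there. Focal adhesion kinase and the scaffold paxillin carry the signalling of the plaque, and zyxin and other LIM-domain proteins gather where actin is under tension. Filamins cross-link actin into a network that also holds integrin tails, and refilins bind filamin and favour bundles over networks.

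A single array stands for each condition, so nothing below has a replicate check or a test between conditions, and each difference compares these 2 arrays only. Differences are log2 stretched minus log2 non-stretched of the deposited signal, and a gene's value is that of its brightest probe set. Signals under the 50th percentile of an array (the floor, 28.7 non-stretched and 28.4 stretched) were set to it, and a fold from a floored value is written as "at least". Scaling could move every difference by about 0.11 in either direction, because the 18 hybridisation spike-in probe sets had a median difference of -0.11 and the 75th percentiles of the arrays differed by 0.11. Centring on the 75th percentile put the median of all genes at -0.10, with 6.34% of them 2-fold higher and 9.05% lower, and centring on the spike-ins put it at 0.12, with 9.79% and 6.17%. The SD of a single probe set's difference came from the 2 brightest probe sets of each gene that were above the floor in both arrays. By the signal of the dimmer of the 2, it was 0.49 under 100, 0.34 from 100 to 400, 0.24 from 400 to 1600 and 0.15 above 1600. Below, each gene is set beside the SD of the range that holds the signal of its brightest probe set. This SD covers probe noise and not variation between cultures. All 10 epithelial markers were above the floor in both arrays, with a median difference of -0.21 and 6 of 10 below 0. The keratins KRT8, KRT18, KRT19 and KRT7 were at 0.21, 0.22, 0.13 and 0.09, and the surface and junction genes EPCAM, CDH1, CLDN7 and CLDN4 at -0.15, -0.38, -0.28 and -0.67. The splicing factor ESRP1 was at -0.80. CFTR, the airway chloride channel, read 5924 without stretch and 2199 with it, 2.69-fold lower, with its 3 measured probe sets from -1.50 to -1.32.

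Of the 8 genes, RFLNB was 8.47-fold higher in the stretched array, PDLIM7 2.09-fold higher and PXN 1.63-fold higher, while ACTN4, VCL, PTK2, TLN1 and ZYX differed by at most 1.26-fold. Thus 2 of 8 were at least 2-fold higher, against 7.78% of the 13453 measured genes, and 0 of 8 were at least 2-fold lower, against 7.49%. Because the genes were chosen with earlier results known, counts set beside such shares are description only. The median of the 8 was 0.23 on the log2 scale and the median of all measured genes 0.005. By sign, 5 of the 8 lay above 0 and 3 below. In bulk RNA, fewer cells of a kind and less RNA per cell cannot be told apart. PDLIM7 sat so near the threshold that the count became 1 of 8 under several other settings, described with that gene. All 8 were above the floor in both arrays in their brightest probe set. Of the 23 probe sets, 15 were above the floor in both arrays, 5 in the stretched array only and 3 in neither.

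**Figure D1:**
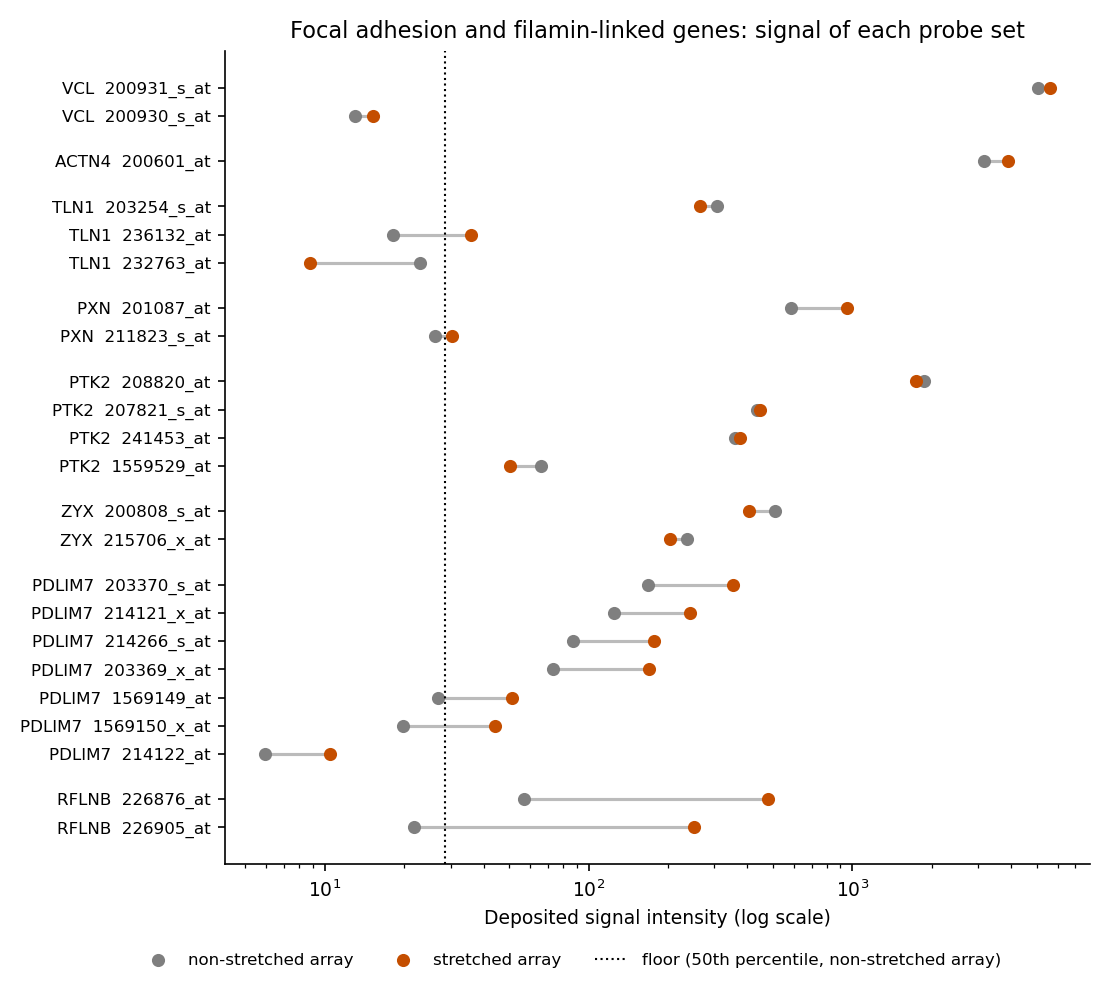
Signal of each of the 23 probe sets on a logarithmic axis, with the non-stretched array in grey, the stretched array in orange and the floor as a dotted line. The 2 RFLNB probe sets span the widest gaps (56.7 to 480.3 and 21.9 to 251.7), and in the brightest PTK2 probe set the points overlap (1875 and 1734).

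RFLNB (refilin B, earlier FAM101B) is a filamin-binding protein, and it had the largest difference of the 8. Its brightest probe set, 226876_at, read 56.7 without stretch and 480.3 with it, a log2 difference of 3.08. The other, 226905_at, read 21.9, under the floor, and 251.7, so it was at least 8.77-fold higher. Both probe sets were dim without stretch and well over the floor with it, and the difference was far larger than the SD of 0.34 for probe sets of that signal. Only 28 of the 13453 measured genes had a higher difference. Among the 6576 genes with 2 or more measured probe sets, RFLNB ranked 3 when genes were ordered by their lowest probe set. RFLNB entered that ranking only because 226905_at passed the floor in the stretched array, where it was high. With the floor moved up to the 75th percentile the non-stretched signal of 226876_at was at the floor, and the value became a lower bound of 1.06 on the log2 scale. Genes of that middle signal range, from 100 to 400, differed 2-fold more often than brighter ones (12.3% higher and 11.8% lower).

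PDLIM7 (also called enigma) has a PDZ domain that binds actin-associated proteins and LIM domains that bind signalling proteins. It had 7 probe sets, all of them higher in the stretched array, although 214122_at was under the floor in both (5.92 and 10.5) and is not counted as measured. The brightest, 203370_s_at, read 167.7 and 351.2, a log2 difference of 1.07. The 3 others above the floor in both arrays were 214121_x_at (125.1 and 242.4), 214266_s_at (87.2 and 176.2) and 203369_x_at (73.5 and 170.1). Their values lay close together: over these 4 probe sets the difference was 1.06 ± 0.11 (SD over probe sets, not cultures), with a range from 0.95 to 1.21. The last pair, 1569149_at (26.8 and 51.5) and 1569150_x_at (19.9 and 44.4), was under the floor in the non-stretched array, with bounds of at least 1.79-fold and 1.55-fold higher. Probe sets of a gene can share target sequence, and 5 of the 7 end in _x_at or _s_at, so they are not independent measurements. The gene's difference ran from 0.60, a lower bound, to 1.18 over the settings tried. It fell short of 2-fold when both arrays were centred at their 75th percentile (0.96), with the intensity trend removed (0.96), after quantile normalization (0.96) and as the mean of its measured probe sets (0.95). That mean includes the bounds of the last pair. With the floor at the 75th percentile the non-stretched signal was floored, giving at least 0.60. On probe sets with a plain _at ending it was floored too, giving at least 0.84. These 2 lower bounds cannot show whether PDLIM7 reached 2-fold. With a pseudocount of 16 PDLIM7 fell short by a margin too small to see at 2 decimals. The direction of PDLIM7 was the same in each setting.

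Paxillin, encoded by PXN, is the scaffold on which focal adhesion kinase and its partners assemble. Its probe set 201087_at read 583.3 and 952.9, a log2 difference of 0.71 against an SD of 0.24 at that signal. The other, 211823_s_at, read 26.2 and 30.3, which is at the floor in one array and just over it in the other, and bears no size. At 1.5-fold, PXN joined RFLNB and PDLIM7, giving 3 of 8 higher against 17.9% of all measured genes and 0 lower against 16.7%. As the mean over its measured probe sets, the dim one included as a bound, PXN was at 0.39, short of 1.5-fold. PTK2, the focal adhesion kinase, had 4 probe sets, each over the floor in both arrays. Probe set 208820_at read 1875 and 1734, 207821_s_at 436.6 and 447.3, 241453_at 358.0 and 375.1, and 1559529_at 65.9 and 50.5. These differences, -0.11, 0.04, 0.07 and -0.38, fell on both sides of 0 with a mean of -0.10 ± 0.21 (SD over probe sets), and centring on the spike-ins turned the value of the brightest to 0.002. No direction can be given for PTK2, and the 2 signalling genes thus had different values, 0.71 for PXN and -0.11 for PTK2, with no test of that gap.

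The 3 genes that tie integrins to actin differed little. VCL, vinculin, read 5068 and 5627 in 200931_s_at, a log2 difference of 0.15, which is close to the SD of 0.15 at that signal; 200930_s_at was under the floor in both arrays (13.0 and 15.3). ACTN4, alpha-actinin 4, had 1 probe set, 200601_at, at 3146 and 3895. Its difference of 0.31 was larger than the SD of 0.15 for bright probe sets and stayed between 0.20 and 0.42 over the settings tried, yet 59.3% of all measured genes differed by as much or more in either direction. TLN1, talin 1, read 307.4 and 263.9 in 203254_s_at, a difference of -0.22 that is smaller than the SD of 0.34. Its dimmer probe set 236132_at (18.1 and 35.7) lay on the other side of 0, at least 1.25-fold higher, and 232763_at (23.0 and 8.82) was under the floor in both. The direction of TLN1 therefore depended on the probe set, and its mean over the measured ones was 0.05.

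ZYX, zyxin, which gathers at strained actin and recruits the filament-lengthening proteins VASP and ENAH, was slightly lower. Probe set 200808_s_at read 509.3 and 405.2 (-0.33) and 215706_x_at 236.3 and 202.9 (-0.22). Both probe sets lay below 0 and the gene stayed there, between -0.45 and -0.22, in the settings that gave it a value, but both end in _s_at or _x_at and the size is of the order of the SD of 0.24. Of all measured genes 57.0% differed by as much or more. ZYX and PDLIM7 both carry LIM domains and stood on opposite sides of 0 in these arrays.

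**Figure D2:**
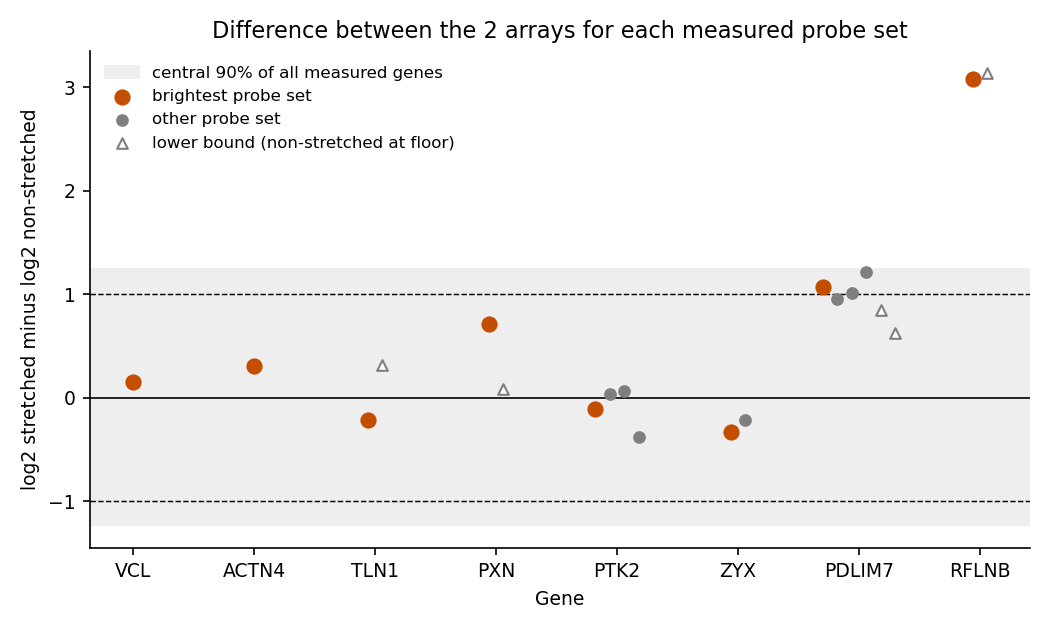
Log2 difference of each of the 20 measured probe sets, grouped by gene, with the brightest in orange, others in grey and open triangles for lower bounds. The shaded band holds the central 90% of all measured genes (-1.23 to 1.24) and the dashed lines mark 2-fold; the 2 RFLNB probe sets (3.08 and at least 3.13) are the points outside the band.

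**Figure D3:**
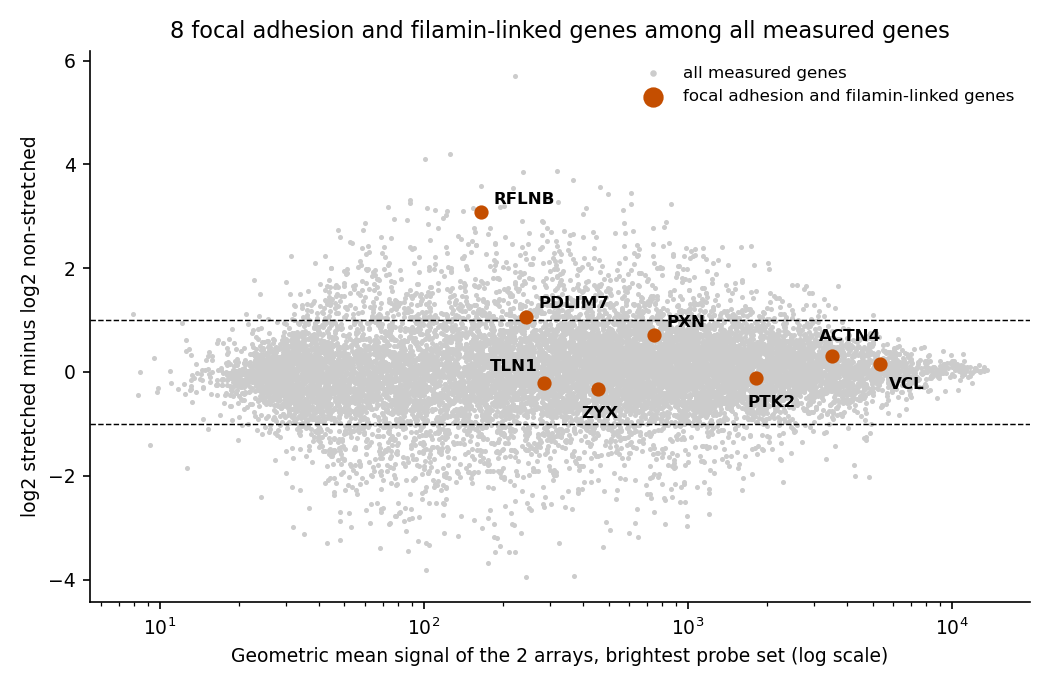
Log2 difference against the geometric mean signal of the 2 arrays (logarithmic axis) for the 13453 measured genes in grey and the 8 genes in orange, each by its brightest probe set. RFLNB stands at 3.08 and PDLIM7 at 1.07, just over the dashed 2-fold line, while the other 6 lie between -0.33 and 0.71.

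To show the promoter sequence behind these genes, 9 RefSeq windows of 7 of the 9 genes were taken by symbol. Each window ran from 250 bases before to 50 after the start (GRCh38.p14). No window was held for RFLNB, and PTK2 was left out of this search. Both strands of the windows were searched for the CArG box of serum response factor, the TEAD core GGAATG and the AP-1 pattern TGANTCA. In that pattern N is any base, and the factors of all these motifs are known to answer to mechanical load. Of all 35116 windows, 1.29% held the CArG box, 14.0% the TEAD core and 7.71% the AP-1 pattern. The window of PDLIM7 held none of them. The window of VCL held 1 TEAD core, as did 1 of the 2 PXN windows. In 1 of the 2 ACTN4 windows there was 1 match to the AP-1 pattern, TGAATCA, and the FLNA window held 1 CArG box. The windows of ZYX and TLN1 held none. Shown here are the window of the gene that differed 2-fold and those of the actin linkers VCL and ACTN4, with matches in capitals.
PDLIM7 promoter window, chr5:177497555-177497854, minus strand: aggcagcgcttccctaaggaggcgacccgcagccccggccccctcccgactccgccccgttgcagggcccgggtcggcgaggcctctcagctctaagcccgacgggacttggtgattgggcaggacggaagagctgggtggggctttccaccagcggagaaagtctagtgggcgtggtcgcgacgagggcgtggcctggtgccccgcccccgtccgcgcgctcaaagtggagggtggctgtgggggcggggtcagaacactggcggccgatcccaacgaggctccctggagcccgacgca
VCL promoter window, chr10:73997866-73998165, plus strand: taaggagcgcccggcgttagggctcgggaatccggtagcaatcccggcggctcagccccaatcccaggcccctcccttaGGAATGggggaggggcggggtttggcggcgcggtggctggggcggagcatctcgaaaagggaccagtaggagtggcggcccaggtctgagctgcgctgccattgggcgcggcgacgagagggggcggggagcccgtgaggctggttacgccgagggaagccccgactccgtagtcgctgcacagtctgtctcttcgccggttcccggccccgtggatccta
ACTN4 promoter window, chr19:38647399-38647698, plus strand: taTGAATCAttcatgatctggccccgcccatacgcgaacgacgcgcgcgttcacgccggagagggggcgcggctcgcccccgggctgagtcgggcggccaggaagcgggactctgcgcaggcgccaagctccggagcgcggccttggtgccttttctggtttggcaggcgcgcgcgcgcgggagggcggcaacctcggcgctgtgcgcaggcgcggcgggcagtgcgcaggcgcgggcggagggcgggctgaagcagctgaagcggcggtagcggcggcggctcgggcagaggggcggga
Capitals mark the TEAD core in VCL and the match to the AP-1 pattern in ACTN4. A match is a stretch of letters, not a measured binding site.

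Close relatives of the 8 genes were read as a list of paralogues, of which 13 of 18 were measured. By 2-fold or more, 2 were higher, against 7.78% of all measured genes, and 1 was lower, against 7.49%. The list median was 0.04. PDLIM2, a PDZ and LIM protein like PDLIM7, read 102.0 and 357.5 and was 3.50-fold higher in its 1 measured probe set. PDLIM4 was higher in all 5 of its probe sets, from 0.11 to 1.28 with 0.39 in the brightest, whereas PDLIM1 and PDLIM5 were at -0.13 and 0.04 and LDB3 at 0.34. The measured PDZ and LIM relatives thus ran from -0.13 to 1.81, and PDLIM7 at 1.07 lay inside that range. LPXN, leupaxin, of the paxillin family, read 131.1 and 440.4 in its brightest probe set (3.36-fold higher) but 44.1 and 29.1 in its other one (-0.60), so its probe sets disagreed. TGFB1I1, another paxillin relative, was at -0.46.

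PTK2B, the other kinase of the FAK family, read 81.9 and 21.7, under the floor in the stretched array, and was at least 2.89-fold lower. ACTN1, the alpha-actinin beside ACTN4, read 5404 and 5293, and its 3 measured probe sets each differed by -0.03. TLN2 was at -0.54, CTNNA1 (alpha-catenin, a vinculin relative of cell-cell junctions) at 0.04, and the zyxin relatives LPP and TRIP6 at -0.48 and 0.13. LPP lay below 0 in 4 of its 5 measured probe sets. FLNC and RFLNA were not analysed here, since no probe set was named for either alone, and ACTN2, ACTN3 and PDLIM3 were under the floor in both arrays. With the floor at the 75th percentile 0 of 10 measured paralogues were past 2-fold in either direction (all measured genes: 6.39% higher, 4.59% lower). That floor lies above both PTK2B signals, so PTK2B had no value. It also lies above the non-stretched signals of LPXN and PDLIM2, whose values were then lower bounds that cannot show whether 2-fold was reached. As the mean over measured probe sets LPXN was not past 2-fold.

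Integrin activators and actin linkers counted 2 of 13 measured genes at least 2-fold higher, against 7.78% of all measured genes. None was lower, against 7.49%, and the list median was 0.12. FERMT1, kindlin-1, the epithelial kindlin that works with talin to activate integrins, read 500.3 and 1463 and was 2.92-fold higher, with its 3 measured probe sets from 1.55 to 1.88. PARVB, beta-parvin, which joins integrin-linked kinase to actin, read 179.1 and 613.6 and was 3.43-fold higher, with 5 measured probe sets from 0.45 to 2.39. Of their relatives, FERMT2, kindlin-2, named after its values were seen, was at -0.35 with its 3 probe sets from -0.65 to -0.003, and PARVA, alpha-parvin, at -0.73 in its brightest. In 3 of the 6 measured PARVA probe sets the gene was at least 2-fold lower (-1.17, -1.23 and -1.07), and 1 dim probe set was at 0.17. FERMT3, kindlin-3, lay on the side of FERMT1, at least 0.58 higher from under the floor, and KANK2 was at 0.86.

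The adaptors of FAK and paxillin had 0 of 16 measured genes past 2-fold in either direction (all measured genes: 7.78% higher, 7.49% lower). The median of these adaptors was 0.07. The widest differences were in DOCK1, a Rac activator, at -0.93 (dimmer probe sets at 0.09 and 0.26), in ASAP1, an Arf regulator that binds FAK, at 0.90 (its 5 probe sets from 0.06 to 0.90), and in BCAR1, the stretch-sensitive scaffold p130Cas, at 0.84 (168.7 and 301.8). DOCK1 went just past 2-fold lower when the arrays were centred on the 75th percentile, with loess and after quantile normalization, and ASAP1 just past 2-fold higher when they were centred on the spike-ins.

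Among VASP, zyxin and LIM-domain partners, 1 of 13 measured genes was at least 2-fold lower, against 7.49% of all measured genes. None was higher, against 7.78%, and the list median was -0.04. SORBS2, an adaptor of the vinexin family that binds vinculin, read 1340 and 383.6 and was 3.49-fold lower, with a second probe set at -1.90. NEXN, an actin-binding protein, was at 0.92, CTTN (cortactin) at 0.43 and PALLD (palladin) at -0.43. Centred on the spike-ins, NEXN was past 2-fold higher and the median was 0.08.

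Filamin partners had 2 of 9 measured genes at least 2-fold lower, against 7.49% of all measured genes. None was higher, against 7.78%, and the list median was -0.11. ARHGAP24 (FilGAP), a Rac-inactivating protein that filamin A holds, read 234.5 and 54.4 and was 4.31-fold lower by an _s_at probe set; its other measured probe set was just over the floor without stretch and under it with stretch (32.0 and 14.2). FILIP1L, related to a filamin-binding protein, read 320.4 and 110.5 and was 2.90-fold lower, with its other measured probe set at -1.60. CSPP1, better known as a centrosome and spindle protein, was at 0.93, CAV1 (caveolin-1) at 0.59 and RALA, a small GTPase that binds filamin, at 0.58. Centred on the spike-ins, CSPP1 was past 2-fold higher and the median was 0.01. A floor at the 75th percentile lies above the stretched signals of ARHGAP24 and FILIP1L. Neither was then past 2-fold, but these values were bounds that cannot show whether 2-fold was reached.

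Serum response factor and its cofactors, which drive many actin and adhesion genes, showed no 2-fold difference: SRF read 685.0 and 736.2 (0.10), MRTFA 264.9 and 244.8 (-0.11) and MRTFB 1018 and 871.7 (-0.22). A list median within about 0.11 of 0 has no settled sign, given the scaling uncertainty.

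**Figure D4:**
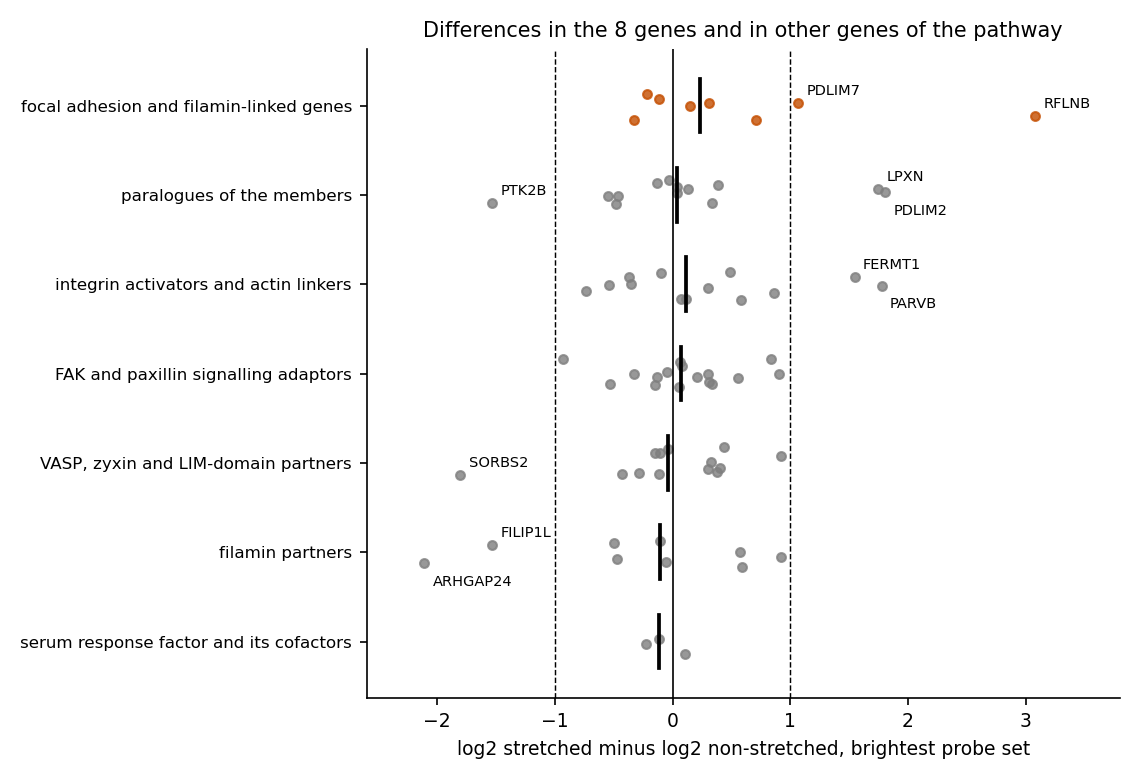
Log2 difference of every measured gene, by its brightest probe set, in the 8 genes (orange) and in 6 lists of related genes (grey), with the median of each as a black bar and dashed lines at 2-fold. Medians lie between -0.11 and 0.23, and the named points are those past 2-fold.

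Markers of other cell types were mostly at the floor. Of 10 fibroblast markers 4 were above it in at least 1 array: VIM (8389 and 8818), which carcinoma lines often express, COL1A1 (126.0 and 105.5), DCN (45.1 and 39.2) and COL1A2 (28.8 and 14.3). The COL1A1 values are those of its brightest probe set (-0.26), while its other 2 measured probe sets were much lower with stretch, at 174.3 and 30.4 (-2.52) and at 149.3 and a value under the floor (at least 5.26-fold lower). PDGFRA, PDGFRB, COL3A1, THY1, LUM and FAP were under the floor in both. Of 8 smooth muscle markers, ACTA2 (32.0 and 17.6), TAGLN (483.7 and 178.8) and SMTN (186.8 and 454.9) were above it, and of 8 endothelial markers PECAM1 (57.7 and 51.3). Of 6 leukocyte and blood markers with a probe set, LYZ (1220 and 1462), CD14 (78.6 and 55.1), HBB (77.1 and 83.5), ITGAM (35.3 and 34.9) and CD3E (25.8 and 30.3) were above it, LYZ being also a product of airway glands. None of these lists had a member that moved as far as RFLNB by its brightest probe set. The summed signal of the fibroblast list was 8659 and 9038, nearly all of it VIM. That of the leukocyte list was 1458 and 1690, most of it LYZ. The smooth muscle list summed to 762.2 and 727.5 and the endothelial list to 138.6 and 126.0. The part of other cells in the RFLNB and PDLIM7 differences was not tested.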

How the data were processed

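Total RNA from 1 stretched and 1 non-stretched Calu-3 culture was hybridised to Affymetrix arrays, with biotinylated cRNA made from 6 µg of RNA, per the labels' protocols. The deposited table holds 1 linear signal intensity per probe set and array (54675 probe sets, 62 of them controls); no source used here states the algorithm, scaling or detection calls behind it, which is why dim values were floored. Names came from the platform annotation, with symbols updated through the gene ID to RefSeq (GRCh38.p14, names only): 41091 named 1 gene, 1801 several and 11721 none here.

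Intensities were taken as log2 with a floor at the 50th percentile of each array, and differences were computed with pandas 2.3.3 and numpy 2.4.6. Each gene took the value of its brightest probe set (mean log2 over both arrays), and 2-fold was the threshold for counting it. With 1 array per group no test, SD or p-value between conditions was possible, and the number of arrays limits the precision. The genes and lists were chosen with earlier results of these data known. Every probe set of the 8 genes is given; of each further list the genes past 2-fold and up to 3 more with the widest difference are named, and of paralogues and markers all that were measured. A gene and a list of regulators are not reported here. The scripts were tested on simulated arrays. Alternatives covered the floor, the scaling between arrays, the probe sets used, the pseudocount and the fold that counts as different.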

Additional observations from a re-analysis of the deposited data

How the results depend on the processing

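The count of genes at least 2-fold higher was 2 of 8 as reported, with no floor and with the arrays centred on the spike-ins. It was 1, RFLNB alone, with the floor at the 75th percentile, with both arrays centred at their 75th percentile, with the intensity trend removed by loess, after quantile normalization, as the mean over measured probe sets, on plain _at probe sets alone (6 genes left, VCL and ZYX having no other kind) and with a pseudocount of 16. Of these settings, the floor at the 75th percentile and the plain _at probe sets gave PDLIM7 only as a lower bound. At 1.5-fold the count was 3, against 17.9% of all measured genes. Over the settings, the share of all measured genes at least 2-fold higher ran from 4.95% (pseudocount of 16) to 11.7% (no floor). The count of genes at least 2-fold lower was 0 in each of these settings. The matching share of all measured genes ran from 4.59% (floor at the 75th percentile) to 12.0% (no floor). The median of the listed genes ranged from 0.12, centred on the 75th percentile, to 0.51, on plain _at probe sets. RFLNB, PDLIM7, PXN, ACTN4 and VCL stayed above 0 and ZYX below 0 in each setting that gave them a value. PTK2 (0.002, centred on the spike-ins) and TLN1 (0.32 on plain _at probe sets, and 0.05 as the mean over measured probe sets) changed sign. No paired analysis was possible because each group has 1 array. Dim signal limits the sizes of RFLNB and the low PDLIM7 probe sets, whose non-stretched values lay near or under the floor.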
